A study of Mus musculus with 6 samples.

Results

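The DEAD-box and DEAH-box RNA helicases were taken as the genes whose symbol starts with Ddx or Dhx followed by a digit, pseudogenes left out. This gave 53 of the 26656 genes listed, 37 with a Ddx and 16 with a Dhx symbol, and 29 of them (22 Ddx and 7 Dhx) were expressed highly enough to be tested, among 5752 tested genes. RNA was measured by long-read (Oxford Nanopore) cDNA sequencing in N2a, a mouse neuroblastoma cell line, to ask how the transcriptome responds to reduced NPM1. The 3 CTR libraries came from cells given the pLKO.1-shCTR plasmid, which carries a non-targeting short hairpin RNA, and the 3 NPM1 KD libraries from cells given pLKO.1-shNpm1, which carries 1 hairpin against *Npm1*. Both were collected 72 h after transfection (3 days in vitro) and share the wild-type N2a background. Puromycin at 9.3 µg/ml is listed for all 3 CTR and all 3 NPM1 KD libraries. The selection is described for the knockdown experiments, without a separate statement on the CTR cells. The series names 3 biological replicates per condition in one place and 2 in another, so the spread between these libraries may in part be technical. The p-values of single genes rest on a variance taken from all tested genes rather than from the gene itself, as described with the processing.

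RNA helicases use ATP to unwind RNA duplexes or to strip proteins from RNA. DEAD-box proteins open short duplexes locally, while DEAH-box proteins move along the RNA strand and are often switched on by partner proteins with a G-patch. In the nucleolus, where NPM1 is one of the most abundant proteins, members of both families take part in making the ribosomal subunits. Others drive the spliceosome, carry mRNA out of the nucleus, start translation or lead mRNA to decay, and DDX5 and its close relative DDX17 also act as cofactors of transcription and of microRNA processing.

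*Ddx17* was the 1 helicase called lower in NPM1 KD by limma at an adjusted p under 0.05, a call that was lost in 10 of 13 alternative settings, and its paralogue *Ddx5* had the same rounded value in every library. The sequences of this pair are shown first. The 60 coding bases around the codons of the motif that names the family (in capitals, reference build GRCm38, GENCODE M21 transcript with the longest coding sequence) lie within 1 exon of each gene, on the minus strand, at chr15:79538851-79538910 in *Ddx17*, chr11:106785169-106785228 in *Ddx5* and chr8:109556041-109556100 in *Dhx38*, the tested member with the largest positive difference.
Ddx17: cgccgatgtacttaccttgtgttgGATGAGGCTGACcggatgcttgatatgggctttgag
Ddx5: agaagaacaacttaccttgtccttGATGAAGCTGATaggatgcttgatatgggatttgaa
Dhx38: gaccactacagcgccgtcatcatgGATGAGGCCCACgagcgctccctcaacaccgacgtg
*Ddx17* and *Ddx5* share 46 of these 60 bases. Over their coding sequences of 1956 and 1845 bases, 1267 of 1807 aligned bases (70.1%) were identical. The longest run of bases common to both transcripts was 21 bases, which is short beside a long read. Other pairs are closer: *Ddx19a* and *Ddx19b* were 93.1% identical in their coding sequences with a shared run of 275 bases, and *Ddx3x* and *Ddx3y* were 84.6% identical with a run of 51 bases. Reads of *Ddx19a* and *Ddx19b* could be divided between the genes by the counting, so their separate levels are uncertain. In the GENCODE annotation no helicase shared as much as 50% of its exon bases with another gene, and *Ddx17* shared 0.0523%, on the opposite strand.

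The promoter windows below (RefSeq, GRCm38.p6, from 250 bases before to 50 after the start, minus strand) belong to the start nearest to the GENCODE transcript, at chr15:79546692-79546991 for *Ddx17* and chr11:106788445-106788744 for *Ddx5*. They are shown for comparison within the pair, whose rounded values differed between the conditions for *Ddx17* and not for *Ddx5*, while the test of the difference between the genes, given with their values, could not pass 0.05. Capitals mark matches, on either strand, to 6 common promoter words: CACGTG (E-box), ACGTG (which lies within it), CCAAT (bound by NF-Y), GGGCGG (GC box), TATAAA (the element that TBP binds) and CCGGAAG (the core bound by ETS factors).
Ddx17: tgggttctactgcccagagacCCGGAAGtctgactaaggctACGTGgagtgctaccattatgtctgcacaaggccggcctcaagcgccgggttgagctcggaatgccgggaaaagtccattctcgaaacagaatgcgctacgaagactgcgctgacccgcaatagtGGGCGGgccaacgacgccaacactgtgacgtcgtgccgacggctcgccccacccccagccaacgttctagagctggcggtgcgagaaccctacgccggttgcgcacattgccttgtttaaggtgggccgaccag
Ddx5: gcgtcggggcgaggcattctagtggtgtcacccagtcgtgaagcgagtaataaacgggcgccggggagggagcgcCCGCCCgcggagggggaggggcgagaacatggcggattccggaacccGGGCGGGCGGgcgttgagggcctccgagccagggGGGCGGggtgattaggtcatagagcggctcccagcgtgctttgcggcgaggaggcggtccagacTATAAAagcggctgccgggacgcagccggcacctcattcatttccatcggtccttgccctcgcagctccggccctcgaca
The *Ddx17* window held 1 match to CCGGAAG, 1 to the word ACGTG and 1 to the GC box. The *Ddx5* window held 4 matches to GGGCGG and 1 to TATAAA, which begins 30 bases before the start. Of the 32851 promoters in the table, GGGCGG was in 35.7%, ACGTG in 19.6%, TATAAA in 13.6% and CCGGAAG in 8.86%. The table holds 58 promoters of 47 helicases, and among these GGGCGG was in 58.6%, ACGTG in 36.2%, TATAAA in 10.3% and CCGGAAG in 36.2%. CCAAT was in 44.8% of the helicase promoters and 37.4% of all promoters, and CACGTG in 12.1% and 7.15%. These are matches of letters, and no binding was measured.

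Levels are regularized log (rlog) values, on a log2 scale normalized for library size. Every value of 1 or more is a whole number, so a step of 1 is the smallest difference 2 libraries can show. *Npm1* was at 10 in each CTR library and at 8 in each NPM1 KD library, a log2 fold change of −2.0 (SE 0.33, limma adjusted p = 3.23e-06). Every library labelled NPM1 KD thus held less *Npm1* than every CTR library. Of 11 neuroblastoma markers 7 were above the expression limit in all 6 libraries (*Chga*, *Chgb*, *Gata2*, *Hand2*, *Isl1*, *Stmn2* and *Tubb3*). The others (*Phox2a*, *Gata3*, *Th* and *Dbh*) were not above it in all 6. No marker of fibroblasts (0 of 6), macrophages (0 of 5) or astrocytes (0 of 4) was above it in all 6 libraries. The summed rlog of the neuroblastoma markers ran from 55.3 to 57.4 in CTR and from 48.4 to 50.5 in NPM1 KD, and its part in the results below was not tested. RNA of whole cultures was measured, so fewer cells of a kind and less RNA per cell cannot be told apart.

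Most helicases had the same rounded rlog mean in CTR and NPM1 KD. Of the 29 tested, 16 (55.2%) had a single value in all 6 libraries, against 40.2% of all tested genes, and 18 (62.1%) had equal means in both conditions, against 48.0%. The means of 7 were higher and those of 4 lower in NPM1 KD. The median log2 fold change was 0.00 for the helicases and 0.00 for all tested genes. By limma 1 helicase (*Ddx17*) was lower and 0 were higher at an adjusted p under 0.05, where 0.417% of all tested genes were lower and 0.0695% higher. At an unadjusted p under 0.05 there was again 1 lower (*Ddx17*) and 1 higher (*Dhx38*), against 8.07% and 6.07% of all tested genes. After each library was centred on its mean, the genes lower and higher at that unadjusted level turned from 464 and 349 to 229 and 432, with 24 and 4 past the adjusted threshold in both cases. The libraries of the 2 conditions did not overlap for 1 helicase in the lower direction (*Ddx17*) and 0 in the higher, against 3.41% and 2.19% of all tested genes.

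**Figure D1:**
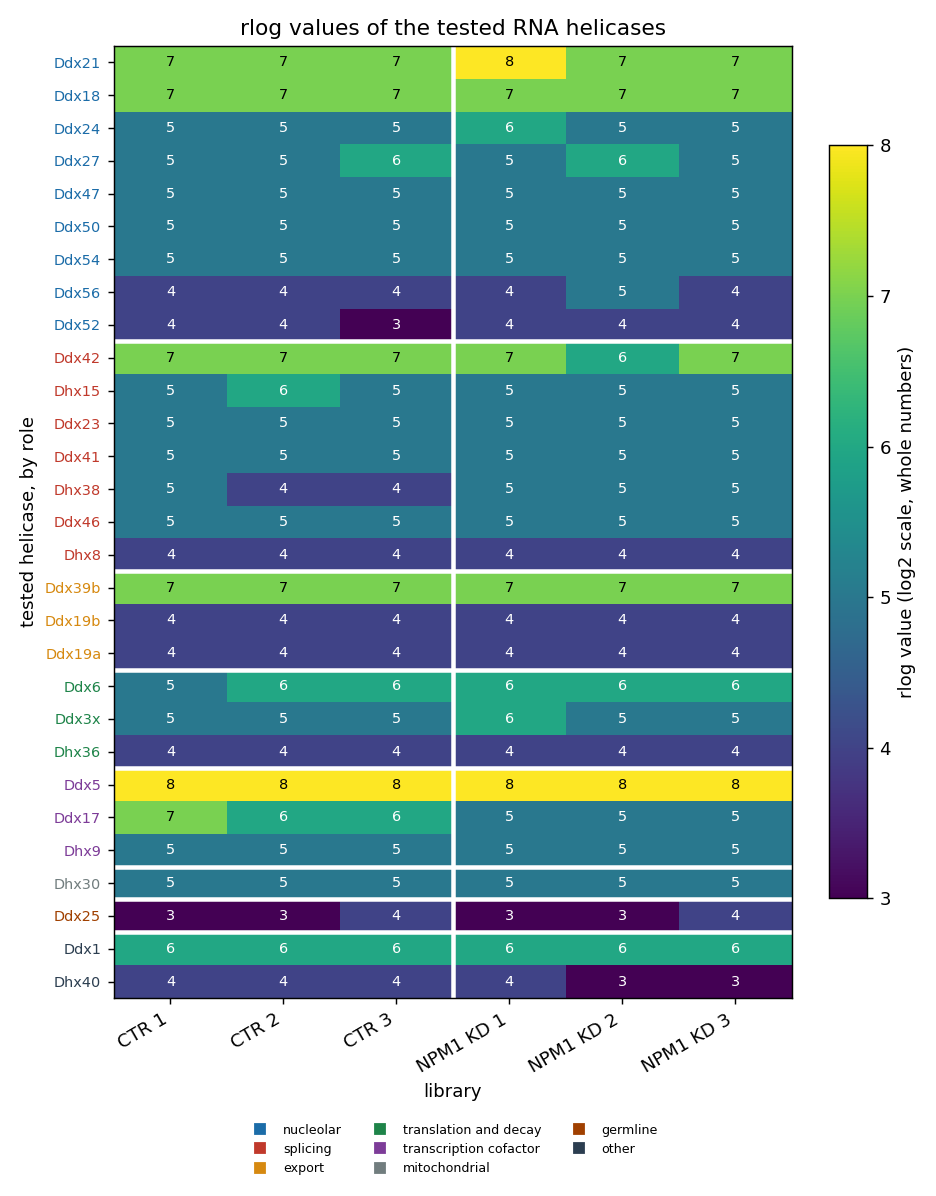
rlog values (log2 scale, written in each cell and shown by colour) of the 29 tested helicases in the 3 CTR and 3 NPM1 KD libraries, with genes grouped by role in rows and libraries in columns. A single value fills the whole row for 16 of the 29 genes, and *Ddx17* is the row where all NPM1 KD cells lie below all CTR cells.

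*Ddx17* (ENSMUSG00000055065) codes for a DEAD-box cofactor of nuclear receptors and of the DROSHA microprocessor. Its rlog values were 7, 6 and 6 in the CTR libraries, against 5, 5 and 5 after the knockdown. Every NPM1 KD library thus lay at least 1 step below every CTR library, and CTR replicate 1 was the highest. The log2 fold change was −1.33 (SE 0.34, 95% confidence interval −2.0 to −0.67, limma adjusted p = 0.026). Rounding allows a difference between −2.33 and −0.33 before the values were rounded, and *Ddx17* is the 1 tested helicase whose direction holds at both ends. All 24 genes called lower had a log2 fold change of this size or larger, so in this fit *Ddx17* stands at the edge of the called genes. The call was lost in 10 of 13 alternative settings, among them the omission of any 1 of the 6 libraries, with limma adjusted p from 0.0617 without CTR replicate 3 to 0.245 without CTR replicate 1. The difference was −1.0 without CTR replicate 1, −1.5 without CTR replicate 2 or 3, and −1.33 in the other 7 of these settings.

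*Ddx5* (ENSMUSG00000020719), which codes for the p68 helicase and can pair with DDX17, was at 8 in all 6 libraries. Its log2 fold change was 0.00 (SE 0.34, 95% confidence interval −0.67 to 0.67), and rounding leaves room for a difference of up to 1 in either direction. Per kilobase of the longest-coding transcript, the authors' mean normalized count was 62.1 for *Ddx5* and 11.9 for *Ddx17*. This mean is pooled over both conditions. Without division by length it was 221 for *Ddx5* and 56.4 for *Ddx17*, and how far long-read counts depend on length was not tested.

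The rlog of *Ddx17* minus that of *Ddx5* was −1, −2 and −2 over the CTR libraries and −3 in each NPM1 KD library. The gap between the paralogues was wider in each NPM1 KD library than in any CTR library, by 1.33 on average (CTR SD 0.58, NPM1 KD SD 0.00). Because the rounded value of *Ddx5* was the same in every library, this difference repeats that of *Ddx17* alone. A two-sided exact permutation test gave p = 0.1, the smallest p that 3 against 3 libraries allow, so the test could not pass 0.05. With both genes rounded, the difference of the gaps could lie between −3.33 and 0.67. *Dhx9*, a helicase grouped with this pair as a transcription cofactor, was at 5 in all 6 libraries.

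**Figure D2:**
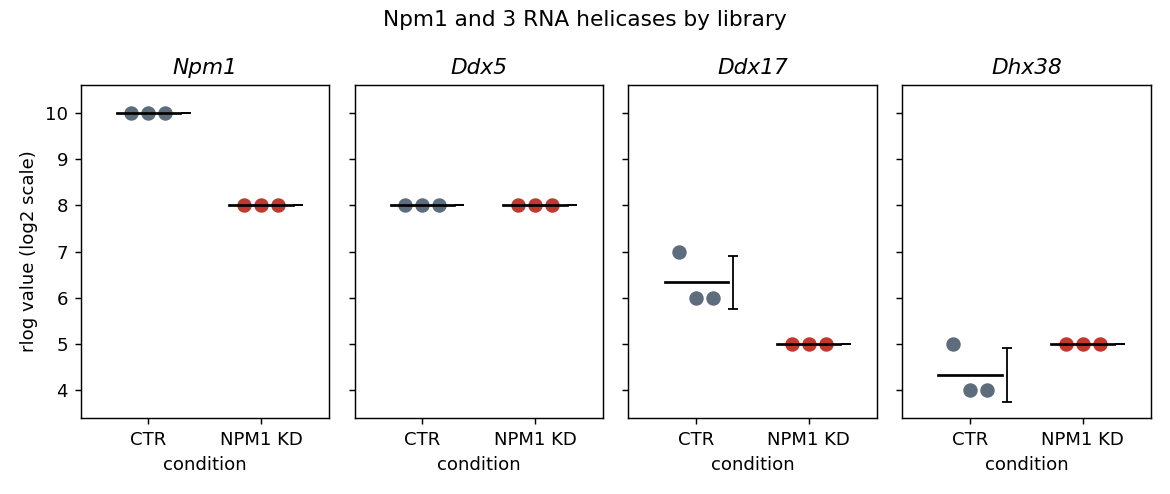
rlog value (log2 scale) of *Npm1*, *Ddx5*, *Ddx17* and *Dhx38* in each CTR and NPM1 KD library, where points are libraries, horizontal lines the mean and bars the SD (n = 3). *Ddx5* stays at 8 while *Ddx17* is at 6 or 7 in CTR and at 5 in NPM1 KD.

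The nucleolar helicases were the members closest to NPM1 by location. Of 16 listed, 9 were tested, and none of them was lower: 4 had higher means and 5 equal means in NPM1 KD. No nucleolar member passed the test, at an adjusted or unadjusted p. *Ddx21*, which codes for a helicase of ribosomal RNA transcription and processing, was at 7, 7 and 7 in CTR, against 8, 7 and 7 in NPM1 KD. Only NPM1 KD replicate 1 stood above the others, and the log2 fold change was 0.33 (SE 0.35, 95% confidence interval −0.35 to 1.01, limma adjusted p = 0.713). *Ddx24*, *Ddx56* and *Ddx52* had the same difference of 0.33, and each also differed in 1 library alone. *Ddx18*, *Ddx47*, *Ddx50* and *Ddx54*, factors of ribosomal subunit assembly or rRNA processing, had 1 value each in all 6 libraries, and *Ddx27* was at 6 in 1 library of each condition and at 5 elsewhere. *Ddx50*, a paralogue of *Ddx21* (68.2% identical in the coding sequence), was at 5 throughout. The 7 nucleolar members that were not tested (*Ddx10*, *Ddx31*, *Ddx49*, *Ddx51*, *Ddx55*, *Dhx33* and *Dhx37*) had mean normalized counts between 0.334 and 9.15.

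The splicing helicases gave values on both sides of 0. Of 10 listed, 7 were tested, with 1 higher, 2 lower and 4 equal means. *Dhx38*, which codes for the PRP16 helicase that remodels the spliceosome between its catalytic steps, was at 5, 4 and 4 in CTR, against 5, 5 and 5 in NPM1 KD. CTR replicate 1 had the value of the NPM1 KD libraries, so the conditions overlapped. The log2 fold change was 0.67 (SE 0.33, 95% confidence interval 0.02 to 1.31), with a limma p of 0.0426 before adjustment and an adjusted p of 0.33, and rounding allows −0.33 to 1.67. *Ddx42*, a helicase of the U2 particle, was at 7, 7 and 7 in CTR, against 7, 6 and 7 in NPM1 KD, a log2 fold change of −0.33 (SE 0.35, limma adjusted p = 0.713). *Dhx15*, which codes for the PRP43 helicase that takes the spliceosome apart, also had −0.33, set by CTR replicate 2 alone. *Ddx23*, *Ddx41*, *Ddx46* and *Dhx8* had 1 value each in all libraries.

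The export helicases had 1 value each in all 6 libraries: 7 for *Ddx39b*, the UAP56 helicase that loads export factors on mRNA, and 4 for both *Ddx19a* and *Ddx19b*, which release mRNA at the nuclear pore. Their 95% confidence intervals ran from −0.68 to 0.68. *Ddx39a*, the fourth, had a mean normalized count of 3.17 and was not tested. Among 6 helicases of translation and decay 3 were tested, with 2 higher means and 1 equal. *Ddx6*, which codes for the P-body helicase of mRNA repression and decay, was at 5, 6 and 6 in CTR, against 6, 6 and 6 in NPM1 KD. Its log2 fold change was 0.33 (SE 0.34, limma adjusted p = 0.713), and CTR replicate 1 alone stood apart. *Ddx3x*, a helicase of translation initiation, also had 0.33, through NPM1 KD replicate 1, and *Dhx36*, which resolves G-quadruplexes, was at 4 throughout.

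Nucleolar helicases were set against those of splicing, export and translation as 1 group. The 13 tested members of the latter had 3 higher, 2 lower and 8 equal means, with a median log2 fold change of 0.00, the same as the median of the 9 nucleolar members. The mean rlog over the nucleolar members was 5.22 in each CTR library, against 5.44, 5.44 and 5.22 in NPM1 KD. NPM1 KD replicate 3 had the CTR value, so the conditions overlapped at this point. Over the 13 others the mean was 5.00, 5.08 and 5.00 in CTR, against 5.15, 5.00 and 5.08 in NPM1 KD. The difference between the conditions was 0.15 for the nucleolar and 0.05 for the other members, and the nucleolar mean minus the other mean was 0.20 ± 0.04 in CTR and 0.29 ± 0.15 in NPM1 KD (SD, n = 3). These 2 group values overlapped, and no test was made on them because a mean over chosen members is not a replicated measurement of its own.

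**Figure D3:**
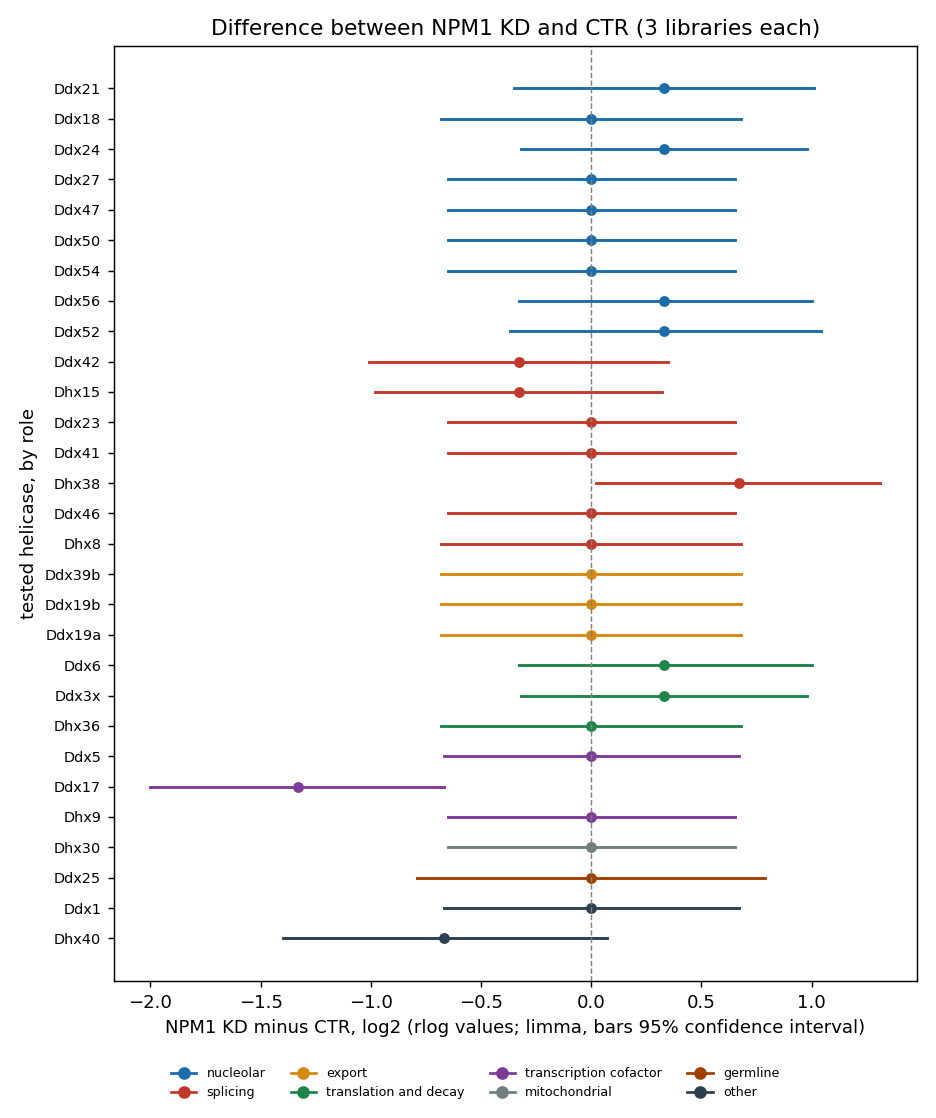
Log2 difference between NPM1 KD and CTR (rlog values, 3 libraries each) for the 29 tested helicases, coloured by role, with bars for the 95% confidence interval of limma. *Ddx17* lies at −1.33, *Dhx40* at −0.67 and *Dhx38* at 0.67, and the other 26 members lie between −0.33 and 0.33.

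Of the remaining members, *Dhx40*, a helicase with roles that are little described, was at 4, 4 and 4 in CTR, against 4, 3 and 3 in NPM1 KD. NPM1 KD replicate 1 shared the CTR value, and the log2 fold change of −0.67 (SE 0.37, 95% confidence interval −1.40 to 0.07) had a limma adjusted p of 0.396. *Ddx1*, a helicase of the tRNA ligase complex, was at 6 and *Dhx30*, of mitochondrial ribosome assembly, at 5 in all 6 libraries. *Ddx25*, known from male germ cells, was at 3 or 4 with the same mean in both conditions. The 24 members that were not tested had mean normalized counts of at most 10.5. Among them 12 had 1 value in all libraries, 15 had equal means, 5 had higher and 4 lower means in NPM1 KD, with differences from −0.67 to 0.67, and 0 were without overlap. *Ddx58*, *Dhx58* and *Ddx60*, which belong to the sensing of viral RNA, had mean normalized counts of 3.36, 0.473 and 0.2. *Ddx4*, the germ cell helicase VASA, and the Y-linked *Ddx3y* were listed at 0 in all 6 libraries.

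The spread between replicates was of the size of the differences between conditions for most members. Between 2 libraries of the same condition, 4 to 7 of the 29 helicases (13.8% to 24.1%) had different values. Between a CTR and an NPM1 KD library this was 4 to 8 (13.8% to 27.6%), so the 2 ranges overlapped for the most part. Over all tested genes, 21.2% to 27.4% differed within and 27.2% to 35.8% between conditions. Of the 13 helicases with more than 1 value, 8 were off by 1 step in 1 library only.

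**Figure D4:**
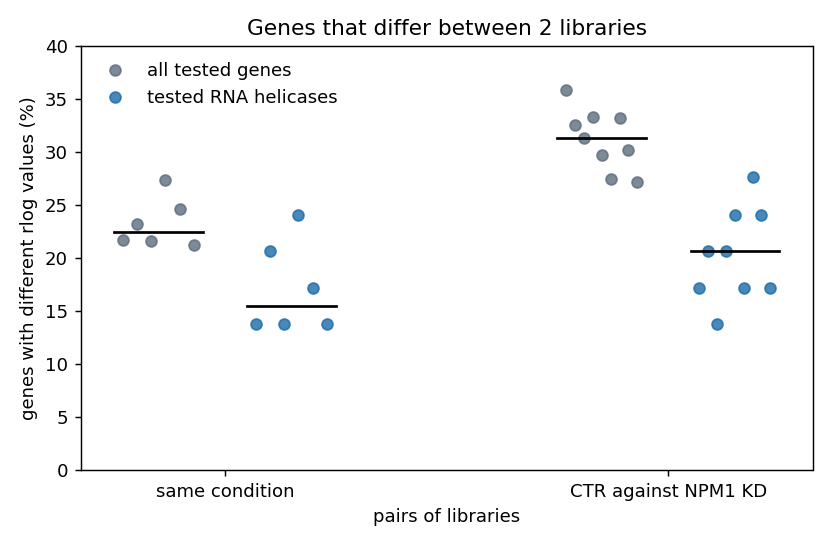
Percent of tested genes with different rlog values between 2 libraries, for 6 pairs within a condition and 9 pairs of a CTR with an NPM1 KD library, where points are pairs and lines medians. Helicases (blue) differ in 13.8% to 24.1% within and 13.8% to 27.6% between conditions, and all tested genes (grey) in 21.2% to 27.4% and 27.2% to 35.8%.

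The genes that work with these helicases were read from 6 lists, of which 99 genes were listed and 68 tested. Of these, 30 had higher, 14 lower and 24 equal means in NPM1 KD, where 1416 of all 5752 tested genes had higher and 1574 lower means. None passed an adjusted p under 0.05 in limma (0 of 68). At an unadjusted p under 0.05, 3 were higher and 2 lower, where 6.07% of all tested genes were higher and 8.07% lower. *Gpatch4*, a nucleolar G-patch protein, had the largest difference of the 68, with 5, 6 and 6 in CTR, against 7, 6 and 7 in NPM1 KD. NPM1 KD replicate 2 overlapped with CTR, and the log2 fold change of 1.00 (SE 0.34, 95% confidence interval 0.33 to 1.67) had a limma adjusted p of 0.0791. Among the 11 tested genes of the G-patch list, 7 had higher and 2 lower means, with a median of 0.33, against 0.00 for all tested genes. *Gpatch11*, another of them, was at 5, 4 and 5 in CTR, against 4 in each NPM1 KD library, a log2 fold change of −0.67 (limma adjusted p = 0.33), with CTR replicate 2 at the NPM1 KD value.

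Of 12 tested mRNA export partners 6 had higher and 2 lower means. *Thoc3*, a subunit of the THO complex, was at 5, 5 and 6 in CTR, against 6 in each NPM1 KD library, a log2 fold change of 0.67 (limma adjusted p = 0.33), with CTR replicate 3 at the NPM1 KD value. Of 13 tested partners of DROSHA and DDX5, 4 had higher, 3 lower and 6 equal means. *Ctcf*, the insulator protein, was at 4 in each CTR library, against 5, 5 and 4 in NPM1 KD, a log2 fold change of 0.67 (limma adjusted p = 0.33), with NPM1 KD replicate 3 at the CTR value. *Drosha* itself, the nuclease of the microprocessor in which DDX5 and DDX17 act, was at 4 in all 6 libraries. The 12 tested genes of the eIF4F and exon junction complexes had 5 higher and 2 lower means, and the 11 of mRNA decay and P-bodies 4 higher and 2 lower, with no gene at an unadjusted p under 0.05 in either list. Among 9 tested RNA helicases with other symbols, 4 had higher and 3 lower means. *Dqx1*, a relative of the DEAH-box family, was at 6, 6 and 6 in CTR, against 6, 5 and 5 in NPM1 KD, a log2 fold change of −0.67 (limma adjusted p = 0.33), with NPM1 KD replicate 1 at the CTR value.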

How the data were processed

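The authors deposited rlog values for each library, a normalized and shrunken score on the log2 scale rather than a count, and a second table that holds their own comparison (fold changes, standard errors, statistics and p-values), which was not used, beside a mean normalized count per gene over all libraries, which was. The submitters' processing notes name minimap2, featureCounts, DESeq2 and the build GRCm39, and versions and strand setting are not given in the sources used here. Of 26913 rows, 257 repeated a gene with the same values and were removed. The deposited values are rounded: 4607 genes with 1 value of 2 or more in all libraries had a log2 mean normalized count within 0.46 of it. The mean normalized counts sum to 841220 (median over tested genes 28.4). Total counts per library were not used here, so the depth of each library is unknown.

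Genes with a mean rlog of at least log2 of 10 (3.32) were compared between 3 CTR and 3 NPM1 KD libraries with limma 3.58.1 in R 4.3.3 (two-sided, intensity trend, variances within groups raised to at least 0.0833, the variance of rounding, Benjamini-Hochberg adjustment over 5752 genes, threshold 0.05). The procedure was tested on simulated data rounded in the same way, with changes that were all larger than that of *Ddx17*. Most changed genes were called there, but in some simulated sets the share of false calls was above that allowed by the threshold. A single call near the threshold, or of a smaller change, is thus uncertain. In the main limma fit the variance used for a gene came from the trend over all tested genes, with no visible part from its own libraries. *Ddx27*, at 5, 5 and 6 in CTR, and *Ddx47*, at 5 in all 6 libraries, both had an SE of 0.33. The SE, confidence interval and p of *Ddx17* thus do not reflect the spread between its own libraries. *Ddx17* minus *Ddx5* was tested with an exact permutation test (SciPy 1.17.1). Sequences were read with Biopython 1.88 from GENCODE M21 and RefSeq tables of GRCm38, a build other than that of the counts, and coding sequences were aligned globally. The members, role groups, partner lists and markers, and the treatment of rounding, were chosen with earlier results of these data known. Values per library are given for *Npm1*, *Ddx5*, *Ddx17*, *Ddx21*, members without overlap or with an unadjusted p under 0.05, the most negative and most positive member of each role, and partners with an unadjusted p under 0.05 (at most 4 a list). Other values named were chosen after they were seen. Alternatives covered the variance limit, trend, filter, centring, each library left out and a replicate block. The paper given with the series does not describe this experiment. Some markers of the neuroblastoma list are not reported here.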

Additional observations from a re-analysis of the deposited data

How the results depend on the processing

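No value changed sign in the 214 alternatives computed over 13 settings, but many of these could not show such a change. Counts of helicases have no sign, and *Ddx5* and most role medians were at 0.00 in the main fit. The differences of *Ddx21* (without NPM1 KD replicate 1), *Ddx42* (without NPM1 KD replicate 2) and *Ddx6* (without CTR replicate 1) went to 0.00. The 1 helicase lower at an adjusted p under 0.05, *Ddx17*, was 0 helicases with no limit on the variance (limma adjusted p of *Ddx17* 0.208), with a limit of 1/6 (0.207), with no filter on low values (0.0678), with the replicate block (0.167) and in every fit without 1 library (0 to 0 helicases). It stayed past the threshold without the trend (0.00656), with a minimum of log2 of 20 (0.0139) and after centring (0.0319). Helicases lower at an unadjusted p under 0.05 numbered 2 without the trend, 3 with no filter and 1 to 2 without 1 library. Helicases higher at that level numbered 0 with no limit, with a limit of 1/6, with a minimum of log2 of 20 and with the replicate block, and 0 to 1 without 1 library. Over all genes, 24 lower and 4 higher became 178 and 123 with no limit, 218 and 132 without the trend, 7 and 1 with a limit of 1/6 or the replicate block, 10 and 1 with no filter, and 5 to 9 and 0 to 2 without 1 library. Same-numbered libraries of the 2 conditions deviated together with r of 0.009, 0.001 and 0.03, against −0.036 to 0.025 for libraries of unlike numbers. No pairing by number was thus seen, but rounding can hide a shared deviation, so these values cannot exclude it. A two-sided exact sign-flip test of *Ddx17* minus *Ddx5* within numbers gave p = 0.25. Rounding to whole numbers leaves differences below 1 undetectable in genes with 1 value, and the cause of the lost call of *Ddx17* was not tested.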
